A study of Sus scrofa with 24 samples.

Results

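The interval from day 2 to day 4 of adipocyte differentiation was examined in intramuscular (IMF) adipocytes of the pig, in 6 of the 24 small RNA libraries of the series: 3 libraries of day 2 (IMF-2d) and 3 of day 4 (IMF-4d). Of the 1587 miRNAs listed in the deposited table, 430 averaged 1 TPM or more over all 24 libraries and were described, 270 of them known pig miRNAs and 160 new ones predicted from the reads of the study. TPM stands here for the reads of a miRNA in each 1000000 reads that a library had on all listed miRNAs. The cells were grown from preadipocytes of the longissimus dorsi of 6-day-old Yorkshire piglets, and the subcutaneous (BF) cells used for comparison came from back fat, also with 3 libraries on each day. The methods of the study name a single set of 3 piglets for both sources, so IMF and BF libraries may share animals. All cultures were held until day 2 in a medium with a phosphodiesterase inhibitor (IBMX), dexamethasone and insulin, and from day 2 to day 4 in a medium with insulin only, so both days and both sources share the earlier induction. No library was tied to a single piglet in the sources used here, so the p-values measure the spread between libraries, which may be technical.

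The interval is the step at which the inducing agents leave the medium. In cultured preadipocytes, the cAMP raised by IBMX and the glucocorticoid start the cascade of C/EBP factors and PPARG, and insulin alone then carries the cells through lipid filling. miRNAs act in this program as brakes on messenger RNAs: a miRNA of about 22 bases guides an Argonaute protein to messenger RNAs that pair with its seed, bases 2 to 8 from its 5′ end. Each hairpin precursor gives a 5p and a 3p arm, of which usually one is kept, and miRNAs with one seed are held to share targets. Since each library measures shares of all miRNA reads from a mixed culture, fewer cells of a type and less miRNA per cell cannot be told apart.

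The sequences below belong to the miRNAs on which the results turn, with the seed in capitals. They were taken from the supplementary list of miRNAs of the study, of which a shortened copy was used here, with a mature sequence for 336 of the 430 miRNAs, and their positions are exact matches in Sscrofa11.1, with genes from the RefSeq annotation. The first pair is shown because its members share a seed but not their course between the days. ssc-miR-146b lies at chr14:113446874-113446894 on the plus strand and ssc-miR-146a-5p at chr16:63044307-63044328 on the minus strand, both outside other genes. Counted from the 5′ end, and with the base of ssc-miR-146a-5p first, they differ by G18A and U21C.
ssc-miR-146b: uGAGAACUgaauuccauaggc
ssc-miR-146a-5p: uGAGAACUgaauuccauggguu

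Another set shows known miRNAs that were higher in all 3 IMF-4d than in all 3 IMF-2d libraries. ssc-miR-199a-5p and ssc-miR-199b-5p share the seed CCAGUGU. ssc-miR-199a-5p has copies at chr2:69558099-69558121 and chr9:114533828-114533850, in introns of the dynamin genes DNM2 and DNM3 and on the strand opposite to them, and ssc-miR-199b-5p lies at chr1:268691565-268691586 in an intron of DNM1, also on the opposite strand. ssc-miR-335 (chr18:18341624-18341645) lies in an intron of MEST, and ssc-miR-664-5p (chr10:9777117-9777139) in an intron of RAB3GAP2, each on the strand of its host. ssc-miR-320 (chr14:6520916-6520938) and ssc-miR-30b-5p (chr4:6952804-6952825) lie outside other genes, and ssc-miR-145-5p (chr2:150580141-150580164) lies opposite an intron of IL17B.
ssc-miR-199a-5p: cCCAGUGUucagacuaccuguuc
ssc-miR-199b-5p: cCCAGUGUuuagacuaucuguu
ssc-miR-335: uCAAGAGCaauaacgaaaaaug
ssc-miR-664-5p: cAGGCUAGgagaagugauuggau
ssc-miR-320: aAAAGCUGgguugagagggcgaa
ssc-miR-30b-5p: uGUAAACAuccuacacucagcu
ssc-miR-145-5p: gUCCAGUUuucccaggaaucccuu

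The last set shows miRNAs that were lower in all 3 IMF-4d libraries. ssc-miR-503 lies on the X chromosome at chrX:110387621-110387643, ssc-miR-10384 at chr2:87391580-87391601 in an intron of LHFPL2, and ssc-miR-27b-5p at chr10:27080011-27080033 in an intron of C10H9orf3. ssc-miR-129a-5p and ssc-miR-129b have one mature sequence, found at chr2:18724269-18724289 and chr18:20157266-20157286, so their reads cannot be assigned to a locus. ssc-miR-132 lies at chr12:48162635-48162656. The sequence listed for novel_miR_1018 is shared by novel_miR_433, novel_miR_326, novel_miR_930 and novel_miR_1137 and has 43 copies in the genome, all in repeats that are soft-masked in the assembly.
ssc-miR-503: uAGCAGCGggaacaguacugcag
ssc-miR-10384: cCCUGCGUggcuucucugugca
ssc-miR-27b-5p: aGAGCUUAgcugauuggugaaca
ssc-miR-129a-5p and ssc-miR-129b: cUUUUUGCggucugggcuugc
ssc-miR-132: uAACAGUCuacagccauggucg
novel_miR_1018: cAGCAAUGauggaucugagc

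The IMF-2d libraries held 9439665 to 10011986 reads on miRNAs and the IMF-4d libraries 10567876 to 15536269, so the depth of the days did not overlap. 1 read was worth 0.0644 to 0.106 TPM, and 3 reads, the smallest amount taken as shown by a library, 0.193 to 0.318 TPM. ssc-miR-21-5p alone took 51.1 to 56.1% of the reads of these 6 libraries and the 10 most abundant miRNAs 91.1 to 92.5%. Because the values are shares of one total, the tests between days and between sources were also made after median-of-ratios scaling. It sets the median change of the 430 miRNAs between the IMF days to 0 in place of -0.10 on the log2 scale, a shift of 0.105. The floor on reads covers counting error only, while the 95% intervals of fold changes come from limma and measure the spread between libraries.

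One miRNA stood apart in the comparison IMF-2d vs IMF-4d. ssc-miR-146b, an NF-kB-responsive miRNA that dampens inflammatory signalling and has been reported to favour adipocyte differentiation, was measured at 7.59, 9.85 and 5.61 TPM in the IMF-2d libraries and at 41.9, 34.7 and 27.7 TPM in the IMF-4d libraries. The lowest day-4 library was above the highest day-2 library by a wide margin. The mean went from 7.68 ± 2.12 to 34.8 ± 7.09 TPM (SD, n = 3 each), a ratio of 4.53. The log2 fold change on the log2(TPM + 1) scale was 2.05 (SE 0.25, 95% interval 1.43 to 2.67), with a limma FDR (Benjamini-Hochberg) of 0.0535 over the 430 miRNAs. It therefore missed the criteria for DE-miRNAs used here, an FDR under 0.05 with a fold change above 1.5, and the exact two-sided permutation p was 0.1, the smallest that 3 against 3 libraries allow. On the whole reads recovered from the table, of which it had 53 to 539 per library, it passed by edgeR and by DESeq2, where its FDR was 7.2e-18. Over the alternatives tried, its log2 fold change lay between 1.87 and 2.34 and its FDR between 7.2e-18 and 0.32.

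The day-4 level was close to that before induction. In IMF-0d ssc-miR-146b was at 42.6 ± 8.88 TPM and in IMF-8d at 129.9 ± 19.04 TPM (SD, n = 3), so that day 2 was the lowest of the 4 days and its libraries overlapped with those of no other day. The BF cells had a day-4 mean of 43.3 TPM (33.03 to 51.6) after 5.34 TPM (4.77 to 6.19) on day 2. The difference between the steps of the sources, IMF minus BF, was -0.73 on the log2 scale (SE 0.32, FDR 0.186 by limma), which did not pass the test.

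Its seed relative did not take the same course. ssc-miR-146a-5p, also NF-kB-responsive, was at 38.6, 46.3 and 44.7 TPM on day 2 and at 39.8, 34.4 and 39.8 TPM on day 4. The libraries of the days overlapped, and the log2 fold change was -0.18 (SE 0.12, 95% interval -0.48 to 0.12). Of the reads of both together, ssc-miR-146b took 11.2 to 17.5% in IMF-2d and 41.0 to 51.3% in IMF-4d. The share had been 35.1 to 48.2% in IMF-0d and returned to 13.3 to 17.03% in IMF-8d, when ssc-miR-146a-5p stood at 742 ± 220 TPM (SD, n = 3). In the BF cells the share was 3.93 to 8.68% on day 2 and 5.23 to 23.04% on day 4, and ssc-miR-146a-5p had means of 91.4 and 393 TPM on these days, the latter over libraries of 172 to 820 TPM.

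**Figure D1:**
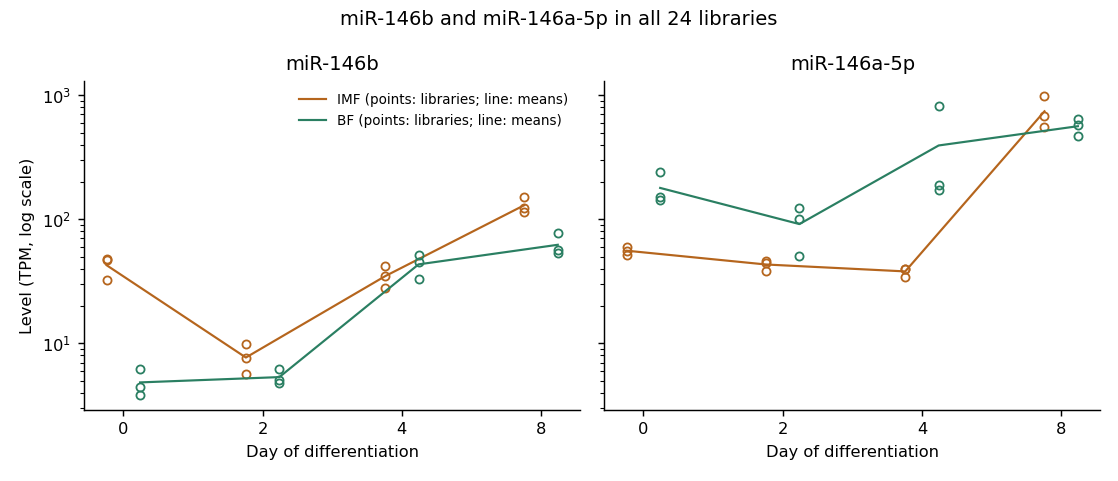
Levels of ssc-miR-146b and ssc-miR-146a-5p in TPM (log axis) against the day of differentiation (days evenly spaced) in the IMF and BF libraries, 1 point per library, with lines through the group means. In IMF, miR-146b goes from 5.61 to 9.85 TPM on day 2 to 27.7 to 41.9 TPM on day 4, while the miR-146a-5p libraries of the same days overlap.

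Across all 430 miRNAs the step was small. By limma, 0 miRNAs (0.0%) met the criteria for DE-miRNAs, and the smallest FDR was 0.0501. At an unadjusted p under 0.05 there were 65 miRNAs (15.1%), 11 higher (2.56%) and 54 lower (12.6%) on day 4, and after scaling 64, 33 higher and 31 lower. edgeR called 1 miRNA (0.233%), ssc-miR-146b, with 64 at an unadjusted p under 0.05, of which 42 were higher on day 4. DESeq2 called 2 (0.465%), ssc-miR-146b and ssc-miR-320, with 54 at that level, of which 33 were higher. Most were thus higher on day 4 by these tools and lower by limma in TPM. The log2 fold changes ran from -0.74 to 2.05, with the 5th percentile at -0.55 and the 95th at 0.38, and on this log2(TPM + 1) scale, which understates the changes of low miRNAs, ssc-miR-146b alone was past 2-fold. 19 miRNAs differed by more than 1.5-fold, 4 of them higher on day 4 and 15 lower. For 87.4% of the 430 miRNAs the 95% interval lay within 2-fold in either direction, and for 150 (34.9%) within 1.5-fold.

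The 3 libraries of day 4 lay outside the range of the 3 of day 2 for 95 miRNAs (22.1%). They were above it for 24 (5.58%) and below it for 71 (16.5%). After median-of-ratios scaling 45 were above and 45 below. All 24 of the higher miRNAs and 45 of the 71 lower ones remained apart in the same direction after scaling. Scaling centres the changes on 0 by its construction, so the balance of higher and lower miRNAs is set by the choice of scale and was not tested.

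**Figure D2:**
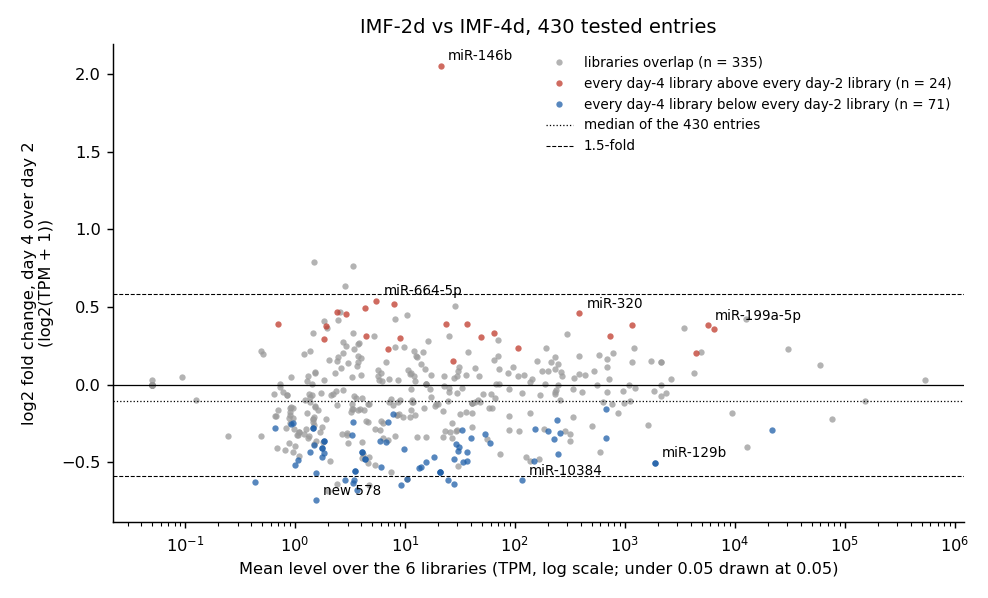
Log2 fold change from IMF-2d to IMF-4d against the mean level in TPM (log axis) of the 430 miRNAs, with those whose libraries do not overlap marked. Most points lie between -0.55 and 0.38, and miR-146b at 2.05 stands above all others.

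The lower miRNAs were spread unevenly over known and new ones, a difference that was not tested. Of the 270 known miRNAs, 20 (7.41%) were higher in all day-4 libraries and 33 (12.2%) lower, with a median log2 fold change of -0.04. Of the 160 new miRNAs, 4 (2.5%) were higher and 38 (23.8%) lower, with a median of -0.20. After scaling the medians were 0.07 and -0.10. All new miRNAs together took 0.295 to 0.365% of the reads of a library. The 24 higher miRNAs had a median level of 22.4 TPM and the 71 lower ones of 9.25 TPM, against 9.74 TPM for all. Sequences with over 10 copies in the genome made up 0 of the 23 higher miRNAs with a listed sequence, 9 of the 51 lower ones and 22 of 336 overall. With each sequence counted once these were 0 of 23, 5 of 45 and 16 of 325, since 5 of the 9 share the sequence of novel_miR_1018.

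Below ssc-miR-146b, the next differences toward day 4 among miRNAs whose libraries did not overlap were much smaller. ssc-miR-664-5p was at 4.39, 4.22 and 4.24 TPM on day 2 and at 5.86, 6.63 and 7.66 TPM on day 4, a log2 fold change of 0.54 (SE 0.14, FDR 0.229). ssc-miR-335, whose host MEST marks enlarging adipocytes in mice, was at 6.09, 6.63 and 6.04 TPM and then at 9.32, 8.11 and 10.98 TPM, a log2 fold change of 0.52 (SE 0.15, FDR 0.229). For both miRNAs the spread between the day-2 libraries was small beside the gap to day 4. ssc-miR-504, in an intron of FGF13, and the new miRNAs novel_miR_797 (intron of EIF4H) and novel_miR_927 (intron of COL6A3) were higher by 0.47, 0.49 and 0.45 on the log2 scale, from means of 1.88, 3.46 and 2.32 TPM to 2.90, 5.15 and 3.54 TPM. Of these, novel_miR_797 and ssc-miR-504 had 95% intervals that reached below 0, and the days of novel_miR_797 were apart by the gap between 4.82 and 4.83 TPM only. novel_miR_978, with 2 to 16 reads per library, went from 0.479 ± 0.243 to 0.925 ± 0.117 TPM.

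ssc-miR-320, which matures without the Drosha step and has been linked to insulin resistance in adipocytes, was at 280.1, 367 and 326 TPM on day 2 and at 401, 456 and 479.6 TPM on day 4. Its log2 fold change was 0.46 (SE 0.13, FDR 0.229 by limma and 0.0476 by DESeq2). ssc-miR-30b-5p, of a family reported to favour adipogenesis, was at 31.1, 30.9 and 31.3 TPM and then at 35.96, 35.01 and 54.8 TPM. The day-2 libraries were nearly equal, and 1 of the day-4 libraries carried much of the difference of 0.39 (SE 0.19, FDR 0.36). In IMF-8d ssc-miR-30b-5p stood at 191 ± 11.07 TPM (SD, n = 3).

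Among abundant miRNAs, the 5p arms of miR-199 had higher values in all day-4 libraries, without passing the criteria. ssc-miR-199a-5p, a miRNA of mesenchymal cells, was at 5029, 5330 and 4448 TPM and then at 7089, 6174 and 6047 TPM, a log2 fold change of 0.38 (SE 0.11, FDR 0.229). ssc-miR-199b-5p, with the same seed, was at 4960, 5940 and 5947 TPM and then at 7252, 6566 and 7771 TPM, a log2 fold change of 0.36 (SE 0.11, FDR 0.229). In neither did any library of day 4 fall within the range of day 2. The 3p arms, listed with equal values for ssc-miR-199a-3p and ssc-miR-199b-3p, had overlapping days and a log2 fold change of 0.14 (SE 0.29). ssc-miR-145-5p, a miRNA of smooth muscle and of contractile mesenchymal cells, was at 897, 1048 and 1055 TPM and then at 1383, 1065 and 1503 TPM. Its groups were set apart by the narrow gap between 1055 and 1065 TPM, and its log2 fold change was 0.39 (SE 0.15, FDR 0.319). ssc-miR-500-5p, of an X-linked cluster, went from 20.3 ± 2.495 to 26.9 ± 3.29 TPM (SD, n = 3).

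**Figure D3:**
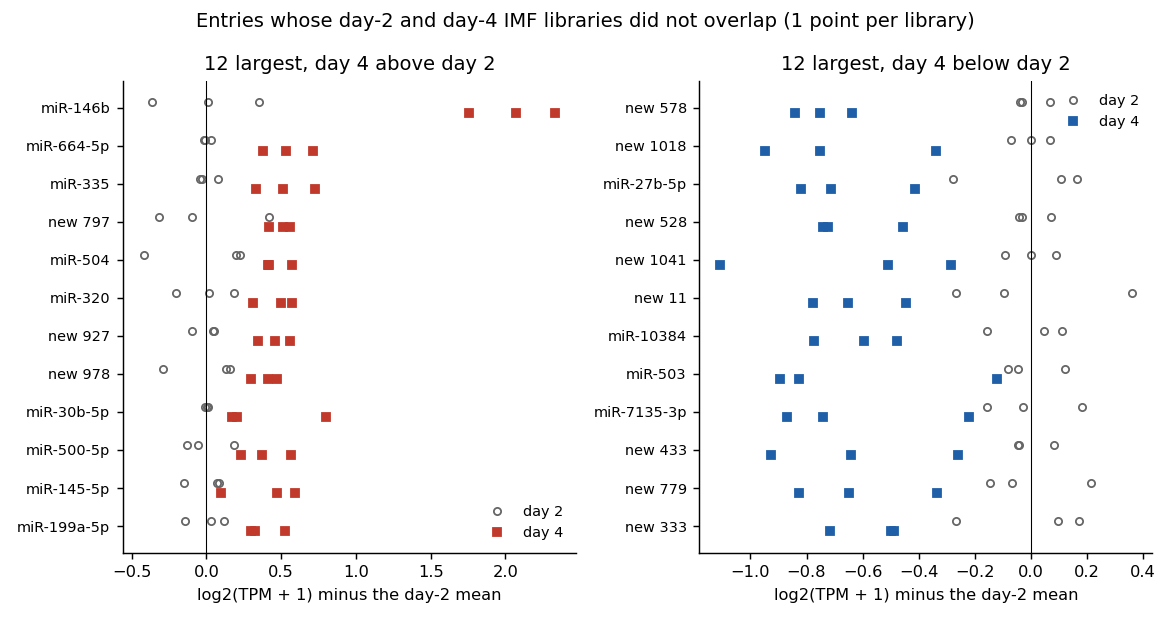
Level on the log2(TPM + 1) scale minus the day-2 mean (horizontal) for the miRNAs with the 12 largest differences in each direction among those whose libraries did not overlap, 1 point per library of IMF-2d (circles) and IMF-4d (squares). The miR-146b points are farthest apart. The other pairs of groups lie close to each other without overlap.

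In the other direction, the smallest FDR of the comparison belonged to a new miRNA near the limit of detection. novel_miR_578 was at 2.10, 2.11 and 2.33 TPM on day 2 and at 0.888, 0.772 and 1.04 TPM on day 4, which are 10 to 22 reads. Its libraries agreed closely within each day, and its log2 fold change was -0.74 (SE 0.08, FDR 0.0501). After scaling the change was -0.67 and passed the criteria, with an FDR of 0.023, and with identical miRNAs merged the FDR was 0.0498. It did not pass under the other alternatives, where the FDR reached 0.277 by DESeq2, 0.252 by edgeR and 0.563 without a filter. In the BF cells novel_miR_578 stood at 2.49 TPM on day 2 and 2.69 TPM on day 4. novel_miR_528, the most abundant new miRNA of this group, was at 33.7, 33.4 and 36.2 TPM and then at 20.4, 24.8 and 20.2 TPM, a log2 fold change of -0.64 (SE 0.12, FDR 0.229). Its group mean was lower on each later day, with 36.2 ± 3.11 TPM in IMF-0d and 15.9 ± 1.37 TPM in IMF-8d.

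The known miRNAs with the largest differences downward were ssc-miR-27b-5p, ssc-miR-10384, ssc-miR-503 and ssc-miR-7135-3p. ssc-miR-27b-5p, the minor arm of a hairpin whose 3p arm is reported to hold back adipogenesis by acting on PPARG, was at 12.4, 9.25 and 12.9 TPM on day 2 and at 6.04, 6.57 and 8.33 TPM on day 4, a log2 fold change of -0.65 (SE 0.19, FDR 0.229). Its 3p arm, ssc-miR-27b-3p, was at 8883, 8447 and 12579 TPM and then at 8794, 6458 and 11447 TPM, so its days overlapped. ssc-miR-10384 was at 150.2, 124.6 and 143.6 TPM and then at 91.7, 80.9 and 99.7 TPM, a log2 fold change of -0.61 (SE 0.12, FDR 0.229). Every day-4 library was well below the lowest day-2 library for ssc-miR-10384, and in IMF-8d it was at 113 ± 8.77 TPM.

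ssc-miR-503, a relative of the miR-16 family that restrains cell cycle genes, was at 28.7, 27.9 and 32.3 TPM and then at 16.2, 15.4 and 27.2 TPM. 1 day-4 library came within 1 TPM of the lowest day-2 library, and the log2 fold change was -0.61 (SE 0.24, FDR 0.319). ssc-miR-424-5p, transcribed from the same X-linked cluster, had means of 17.2 TPM on day 2 and 16.7 TPM on day 4, with overlapping libraries. ssc-miR-7135-3p, in an intron of ABCC1, went from 3.60 ± 0.548 to 2.06 ± 0.765 TPM (SD, n = 3). The other new miRNAs among the largest differences downward, novel_miR_1041, novel_miR_779, novel_miR_333 and novel_miR_11, had day-4 means of 2.46, 8.04, 1.04 and 0.115 TPM after 4.22, 12.7, 2.04 and 0.742 TPM. novel_miR_11, with 12286 copies of its sequence in the genome, had 0 to 12 reads per library.

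novel_miR_1018 was at 4.69, 4.42 and 4.98 TPM on day 2 and at 1.95, 2.38 and 3.501 TPM on day 4, a log2 fold change of -0.68 (SE 0.18, FDR 0.229). The 4 other new miRNAs with its mature sequence, novel_miR_433, novel_miR_326, novel_miR_930 and novel_miR_1137, had log2 fold changes of -0.61, -0.56, -0.56 and -0.48. They are listed as separate miRNAs, but their near-equal values come from one sequence and count as one measurement. The BF means of novel_miR_1018 were 3.57 TPM on day 2 and 2.28 TPM on day 4.

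ssc-miR-129a-5p and ssc-miR-129b, a single sequence listed under both names, were at 2177 and 2179, 2220 and 2221, and 2167 and 2166 TPM in the 3 IMF-2d libraries, and at 1298 and 1297, 1851 and 1853, and 1532 and 1532 TPM in the IMF-4d libraries. The day-2 libraries were nearly alike and all above day 4. The log2 fold change was -0.50 for both (SE 0.14, FDR 0.229), and after scaling the days overlapped. In IMF-8d ssc-miR-129a-5p stood at 3640 ± 294 TPM, so day 4 was a low point between day 2 and day 8.

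The miRNAs that respond to cAMP through CREB, ssc-miR-132 and ssc-miR-212, come from one precursor transcript. ssc-miR-132 was at 37.7, 33.5 and 36.0 TPM on day 2 and at 25.7, 29.2 and 25.5 TPM on day 4, a log2 fold change of -0.40 (SE 0.11, FDR 0.229). Its days did not overlap in TPM but did so after scaling. ssc-miR-212 was at 2.20, 3.82 and 5.19 TPM and then at 4.44, 4.70 and 3.41 TPM, a log2 fold change of 0.17 (SE 0.27, 95% interval -0.51 to 0.85) with a wide spread on day 2.

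miRNAs grouped by what they are known to do were counted for libraries that did not overlap, beside the 5.58% higher and 16.5% lower of all 430 in TPM and the 10.5% higher and 10.5% lower after scaling, and for their median log2 fold change beside the -0.10 of all. None of the lists holds a miRNA that passed the limma criteria. The lists were chosen with earlier results of these data known, so their counts are descriptions and no test of the groups. Except for that of the study they hold known miRNAs only. Of all 270 known miRNAs, 7.41% were higher and 12.2% lower in TPM. The list reported to favour adipogenesis had 25 members among the 430, of which 7 (28%) were higher and 0 lower, namely ssc-miR-146b, ssc-miR-335, ssc-miR-320, ssc-miR-30b-5p, ssc-miR-30c-5p, ssc-miR-26a and ssc-miR-365-3p, with a median of 0.05. For ssc-miR-365-3p the highest day-2 library (50.45 TPM) and the lowest day-4 library (50.52 TPM) were nearly equal. ssc-miR-26a was at 4113, 4119 and 4215 TPM and then at 4421, 4585 and 5411 TPM. ssc-miR-30c-5p went from 97.1 ± 6.47 to 115 ± 10.5 TPM (SD, n = 3). After scaling 8 members were higher and 0 lower, with a median of 0.18. The list reported to hold back adipogenesis had 21 members, of which 1 (4.76%), ssc-miR-145-5p, was higher and 0 lower, with the same median of 0.05. After scaling 5 were higher, with a median of 0.17.

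**Figure D4:**
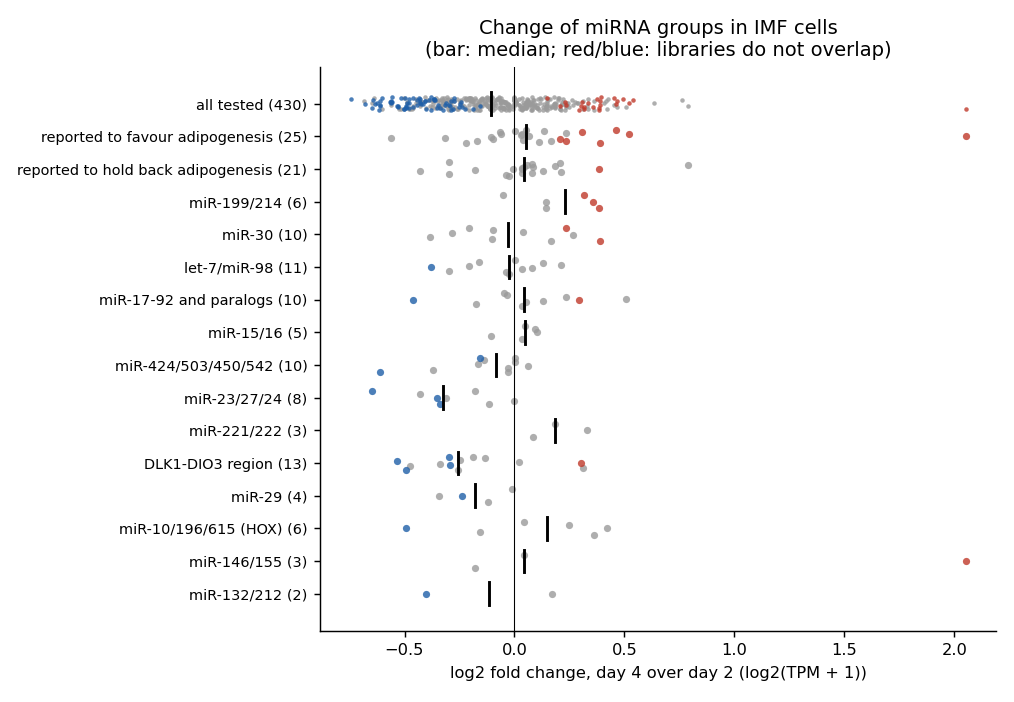
Log2 fold change from IMF-2d to IMF-4d of each member of the miRNA lists, 1 point per miRNA with the list median, beside the median of all 430 miRNAs at -0.10. The members favouring and those holding back adipogenesis have medians of 0.05, and the miR-23/24/27 members all lie below 0.

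All 8 members of the miR-23, miR-24 and miR-27 clusters, which lie on chromosomes 2 and 10 and include the PPARG-targeting miR-27, had a log2 fold change below 0, with a median of -0.33, and 3 were lower in all day-4 libraries. After scaling 6 of the 8 were below 0, with a median of -0.22. Of all 430 miRNAs, 266 were below 0 in TPM and 207 after scaling. ssc-miR-24-3p was at 799, 710 and 731 TPM and then at 619, 468 and 704 TPM, and its minor arm ssc-miR-24-1-5p went from 253 ± 18.2 to 198 ± 22.4 TPM (SD, n = 3). The days of ssc-miR-24-1-5p overlapped after scaling. Of the 6 members of the miR-199 and miR-214 clusters, 3 were higher in all day-4 libraries, with a median of 0.23 and, after scaling, of 0.36. Beside the 5p arms of miR-199 this was ssc-miR-214-3p, at 601, 648 and 668 TPM and then at 674, 682 and 1094 TPM, of which 1 library set the size of the difference.

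From the imprinted DLK1-DIO3 region, whose gene DLK1 holds preadipocytes undifferentiated, 13 of the 28 miRNAs on the list were among the 430. Their median was -0.26, with 10 below 0, 4 lower and 1 higher in all day-4 libraries. After scaling 10 were still below 0, with a median of -0.13, but 2 were lower and 2 higher. Of all 430 the counts below 0 were 266 in TPM and 207 after scaling. ssc-miR-381-3p, one of the 10 most abundant miRNAs, was at 24937, 21987 and 24501 TPM and then at 20013, 21775 and 16772 TPM, with days that overlapped after scaling. ssc-miR-370 was at 171, 169 and 179 TPM and then at 149, 104 and 119 TPM, and remained apart after scaling. ssc-miR-758 went from 220 ± 10.1 to 179 ± 24.05 TPM and ssc-miR-493-3p from 16.03 ± 1.21 to 11.01 ± 3.32 TPM (SD, n = 3).

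Families tied to the cell cycle had ranges of unlike width over unlike numbers of members, and the spread was not tested. The 5 members of the miR-15 and miR-16 family had log2 fold changes from -0.11 to 0.10, and 4 of them had a 95% interval within 1.5-fold. Of the 10 members of the miR-17-92 cluster and its paralogs, 1 was higher and 1 lower, with a median of 0.05 and log2 fold changes from -0.46 to 0.51, and both come from the paralog cluster on the X chromosome. ssc-miR-363 was at 21.8, 18.99 and 23.7 TPM and then at 15.3, 16.1 and 14.5 TPM, while ssc-miR-106a was at 1.498, 1.81 and 1.38 TPM and then at 1.86, 2.19 and 2.37 TPM. Neighbours in one cluster thus stood on opposite sides, with log2 fold changes of -0.46 (SE 0.13) and 0.29 (SE 0.10), both without overlap also after scaling. Neither passed the limma criteria. The sequence listed for ssc-miR-106a differs from that of ssc-miR-17-5p only at its ends, so its few reads may not all come from that cluster. The 10 members of the X-linked miR-424 and miR-503 cluster had a median of -0.08, a range of -0.61 to 0.06, and 2 lower.

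The let-7 and miR-98 family, with 11 members, had a median of -0.02, and 1 member was lower and 0 higher. After scaling the median was 0.10, with 1 higher and 0 lower. The 4 members of the miR-29 family, which acts on collagen messages, were all below 0 in TPM and 2 of them below 0 after scaling. The 3 of miR-221 and miR-222 were above 0 in both scalings, with a median of 0.19 in TPM, and overlapped in TPM. The miR-30 family had a median of -0.03 over 10 members, the miR-143 and miR-145 cluster of 0.13 over 4, the X-linked miR-532 and miR-660 cluster of 0.13 over 6, the miR-181 family of 0.05 over 3, and the miRNAs of the HOX clusters of 0.15 over 6. Of the HOX miRNAs, ssc-miR-615 was lower in all day-4 libraries, with 42.9 ± 6.28 and then 30.1 ± 2.19 TPM (SD, n = 3). The NF-kB-responsive miR-146 and miR-155 had 3 members among the 430, of which ssc-miR-146b alone was apart. Of 18 miRNAs that the study singled out on these same samples, and that are no independent evidence of a direction, 3 were higher and 9 lower, with a median of -0.39. After scaling 3 were higher and 7 lower, with a median of -0.27, and 4 of the 9 are novel_miR_1018 and copies of its sequence.

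Of the 10 most abundant miRNAs of the 6 libraries, 2 had days that did not overlap in TPM, ssc-miR-381-3p (lower) and ssc-miR-199b-5p (higher). ssc-miR-21-5p, abundant in most cultured mesenchymal cells, had a mean of 531377 ± 18777 TPM on day 2 and 542729 ± 16488 TPM on day 4 (SD, n = 3), and ssc-miR-148a-3p, reported to favour adipogenesis, 157569 ± 16117 and 147052 ± 22217 TPM. ssc-miR-143-3p, also tied to adipocyte differentiation, had 82217 ± 6838 and 71045 ± 11266 TPM. In these the days overlapped. The same held for ssc-let-7i-5p, ssc-miR-100, ssc-miR-151-3p, ssc-miR-10b and ssc-miR-27b-3p, with log2 fold changes from -0.40 for ssc-miR-151-3p to 0.42 for ssc-miR-10b. The value of ssc-miR-10b (SE 0.25) lay above the 95th percentile of the 430 miRNAs, 0.38, with days that overlapped.

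Markers of other cell types were followed in the same libraries. The muscle miRNAs summed to 814.1 to 1065 TPM on day 2 and 696.3 to 984.8 TPM on day 4, nearly all of it ssc-miR-1, with 788, 1040 and 945 TPM and then 818, 672 and 959 TPM. ssc-miR-133a-3p was at 10.8 to 13.5 and 9.77 to 12.2 TPM and ssc-miR-499-5p at 11.3 to 13.2 and 11.97 to 16.5 TPM, while ssc-miR-206 and ssc-miR-133b, which mark myoblasts, did not exceed 0.799 and 0.284 TPM. Of the 7 muscle markers, 1 was at 0 in all 6 libraries, and the days overlapped for the sum. Of the 7 blood markers, ssc-miR-144 and ssc-miR-223 were at 0 in all 6 libraries, and the sum was 1.31 to 1.70 TPM on day 2 and 0.662 to 1.598 TPM on day 4. The endothelial miR-126 arms summed to 24.5 to 27.4 and 18.7 to 30.9 TPM. The epithelial list summed to 445 to 551 and 319 to 519 TPM, carried by ssc-miR-182, ssc-miR-183 and ssc-miR-96-5p, while ssc-miR-200b, ssc-miR-141, ssc-miR-429 and ssc-miR-375 had at most 3 reads. All 3 of the former had log2 fold changes below 0, as had 266 of all 430 miRNAs, with a median of -0.42 for the 3. ssc-miR-96-5p was at 10.2 to 12.8 TPM on day 2 and 7.47 to 10.1 TPM on day 4, without overlap in TPM but with overlap after scaling. The part of these cells in the differences above was not tested.

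The step of the IMF cells was then compared with that of the BF cells in one fit of all 24 libraries, which has no term for animals that the sources may share. Between day 2 and day 4, 121 miRNAs differed by more than 1.5-fold in BF and 19 in IMF, and 45 and 1 by more than 2-fold. The SD of the log2 fold change over the 430 miRNAs was 0.67 in BF and 0.29 in IMF. These counts and SDs were taken in TPM only, without scaling. The 10 most abundant miRNAs of the IMF libraries took 89.5 to 91.2% of BF reads on day 2 and 86.2 to 87.7% on day 4. In IMF they took 91.1 to 92.5% over both days. The part of this shift in the counts was not tested. The difference between the steps met the criteria for 33 miRNAs (7.67%), of which 31 had the lower step in IMF (7.21%) and 2 the higher one (0.465%). For these 33 the median step was 1.24 in BF and -0.12 in IMF, with IMF steps between -0.62 and 0.47. The 33 were picked by the difference between the steps, so these medians describe the pick and are no separate result. They include 4 miRNAs with at most 3 reads in each IMF library of the 2 days. After scaling 19 met the criteria, 14 lower and 5 higher in IMF, and 16 of the 33 were among them. The count was 7 in the fit of the 12 libraries of these days, 11 by edgeR, 15 without a level filter, and 34 by DESeq2, of which 22 were shared with the 33 and 12 were higher in IMF. When 1 library was left out it ran from 12 to 64. In 4 of the 33 each IMF library of the 2 days had at most 3 reads, so those passed the level filter through other groups and their IMF step could not be measured. The BF step was above 0 in 31 of the 33, and in IMF 8 of the 33 had libraries that did not overlap, all lower on day 4.

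**Figure D5:**
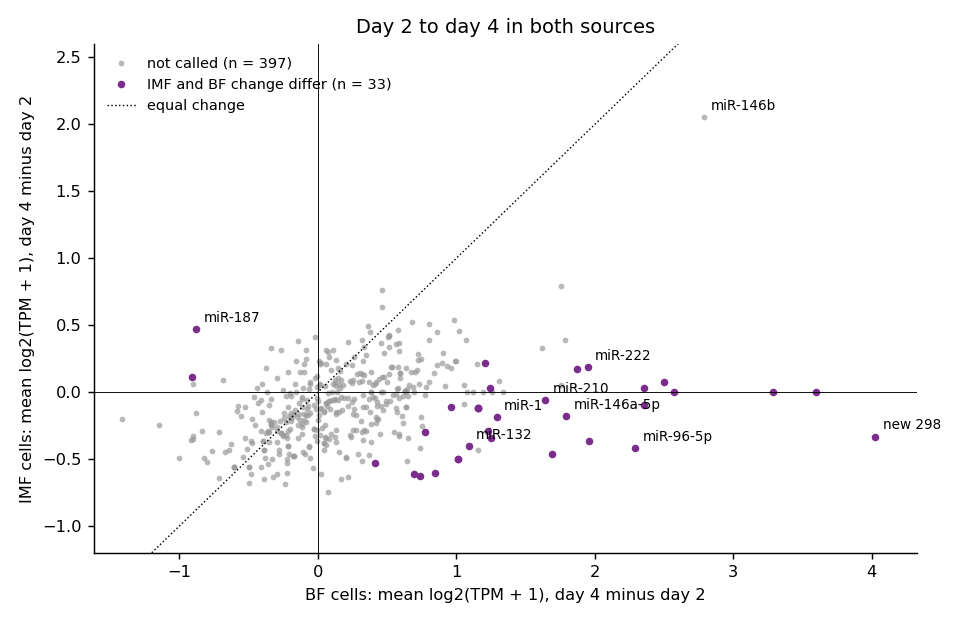
Log2 fold change from day 2 to day 4 in BF (horizontal) against that in IMF (vertical) for the 430 miRNAs, with the 33 whose steps differ marked. The marked miRNAs, picked by the difference between the steps, spread along the BF axis, with a median step of 1.24. On the IMF axis they lie near 0, with a median of -0.12.

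The miR-132 and miR-212 pair was among them. In BF ssc-miR-132 had means of 50.6 TPM on day 2 and 110 TPM on day 4, and the steps differed by -1.49 (SE 0.28, FDR 0.0028 by limma). For ssc-miR-212 the BF means were 8.00 and 32.5 TPM, and the steps differed by -1.70 (SE 0.41, FDR 0.00985), a call that was lost by edgeR and in the fit of the 12 libraries of these days, unlike that of ssc-miR-132. Both miRNAs were higher in IMF-8d, with 67.2 ± 7.91 and 10.4 ± 3.12 TPM (SD, n = 3), than in IMF-4d.

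ssc-miR-210, a miRNA of the hypoxia response that has been reported to favour adipogenesis, was at 57.2, 66.3 and 60.1 TPM on day 2 and at 63.3, 55.1 and 57.6 TPM on day 4 in IMF. In BF it had means of 62.8 and 195.99 TPM, and the steps differed by -1.70 (SE 0.33, FDR 0.0028). ssc-miR-452 was at 1.598, 1.51 and 1.06 TPM and then at 3.02, 0.837 and 1.14 TPM in IMF, against BF means of 0.867 and 9.47 TPM. Both stood far higher in IMF-8d, at 258 ± 44.1 and 26.8 ± 3.61 TPM. ssc-miR-222, which restrains cell cycle inhibitors and is reported to hold back adipogenesis, had IMF means of 355 ± 35.5 and 405 ± 53.9 TPM and BF means of 467 and 1898 TPM, with a difference of -1.76 (SE 0.42, FDR 0.00985). The call of ssc-miR-222 was lost when BF-2d replicate 3 was left out, while those of ssc-miR-210 and ssc-miR-452 were kept.

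ssc-miR-29b was at 27.5, 27.03 and 33.1 TPM and then at 33.6, 26.3 and 13.1 TPM in IMF, with 1 low library on day 4, while the BF means were 48.2 and 111 TPM. Its steps differed by -1.60 (SE 0.38, FDR 0.00985), and after scaling the FDR was 0.0532, above the threshold. ssc-miR-1 had BF means of 484 TPM on day 2 and 1203 TPM on day 4, and its steps differed by -1.48 (SE 0.34, FDR 0.00985), a call that was lost by edgeR. The mean of this muscle miRNA was thus higher on day 4 in the fat-derived and not in the muscle-derived cultures. The epithelial ssc-miR-182, ssc-miR-183 and ssc-miR-96-5p also belonged to the 33 in TPM, but only ssc-miR-96-5p did so after scaling, where the FDR was 0.0374 against 0.0945 for ssc-miR-182 and 0.108 for ssc-miR-183. They had BF means on day 4 of 848, 385 and 35.6 TPM after 145.4, 75.7 and 3.83 TPM. The BF-4d libraries of ssc-miR-182 ran from 209 to 1911 TPM, a spread far wider than that of the IMF libraries. ssc-miR-138, which is reported to hold back adipogenesis, had at most 2 reads in each of the 6 IMF libraries and a BF mean of 18.96 TPM on day 4, with a range of 4.45 to 44.6 TPM. No IMF step could be measured for it at this depth.

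ssc-miR-187 was one of the 2 miRNAs with the higher step in IMF. It was at 1.90, 1.21 and 3.07 TPM and then at 3.29, 2.90 and 3.12 TPM in IMF, and in BF at 0.743 to 1.25 TPM on day 2 and at most 0.212 TPM on day 4. The steps differed by 1.35 (SE 0.31, FDR 0.00985), with 12 to 45 reads in the IMF libraries, but the BF-4d values lie under the floor of 3 reads, and the call was lost by DESeq2 and in the fit of the 12 libraries. novel_miR_298 had at most 8 reads in each of the 6 IMF libraries, BF means of 2.31 and 50.1 TPM, and 22.6 ± 1.94 TPM in IMF-8d, so it passed the level filter through other groups and its difference of -4.36 (SE 0.52, FDR 3.87e-06) mainly restates the BF step.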

How the data were processed

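Small RNA was sequenced from IMF and BF adipocyte cultures on days 0, 2, 4 and 8, with 3 libraries in each of the 8 groups. The authors removed adapters and low-quality reads, mapped the rest to Sscrofa11.1 with Bowtie, set aside other non-coding RNA, matched known miRNAs to miRBase and predicted new ones with miRDeep2. The deposited values, in RPM and named TPM by the authors, give the reads of a miRNA in each 1000000 reads that a library had on all listed miRNAs, and whole reads were recovered from them to within 0.000452 of a read in all 24 libraries. No molecular identifiers were named, so PCR copies were not removed.

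For IMF-2d vs IMF-4d, limma 3.58.1 (eBayes with trend, R 4.3.3) was run on log2(TPM + 1) of the 6 libraries and 430 miRNAs, so fold changes of low miRNAs are understated. The difference between sources was a contrast in one fit of all 24 libraries. The criteria were an FDR (Benjamini-Hochberg) below 0.05 together with a change of over 1.5-fold. Libraries were called non-overlapping where all 3 of one day lay outside the range of the other. Fits were tested on simulated data. Alternatives were edgeR 4.0.16 and DESeq2 1.42.0 on whole reads, median-of-ratios scaling, a pseudocount of 0.1, a filter at 10 TPM on average or none, merged identical miRNAs, one fit of 24 libraries, the replicate number as a block, the FDR alone, and leaving out each library. DESeq2 gave an adjusted p for 419 of the 430.

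Named were miRNAs called by any tool, the 12 largest differences in each direction among non-overlapping miRNAs, the 10 most abundant, the 8 smallest p between sources, members of the lists, and miRNAs of one sequence. The members and lists were chosen with earlier results of these data known. Sequences were matched exactly to both strands of the genome. Python 3.11.15 with pandas 2.3.3, SciPy 1.17.1 and Matplotlib 3.10.9 was used. The mRNA libraries were not analysed here.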

Additional observations from a re-analysis of the deposited data

Results flagged for a closer look

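IMF and BF cells differed in their step from day 2 to day 4 by the limma test of the difference itself (FDR under 0.05, fold above 1.5) for 23 of the miRNAs named, each given as IMF minus BF on the log2 scale. The known miRNAs with a lower step in IMF were ssc-miR-96-5p (-2.71, SE 0.64), ssc-miR-182 (-2.32, SE 0.65), ssc-miR-183 (-2.16, SE 0.63), ssc-miR-452 (-2.42, SE 0.48), ssc-miR-146a-5p (-1.97, SE 0.54), ssc-miR-222 (-1.76, SE 0.42), ssc-miR-210 (-1.70, SE 0.33) and ssc-miR-212 (-1.70, SE 0.41). Smaller differences were those of ssc-miR-29b (-1.60, SE 0.38), ssc-miR-129a-5p and ssc-miR-129b, which are one sequence (-1.52, SE 0.39), ssc-miR-132 (-1.49, SE 0.28), ssc-miR-1 (-1.48, SE 0.34), ssc-miR-7135-3p (-1.30, SE 0.37), ssc-miR-133a-3p (-1.07, SE 0.32) and ssc-miR-365-5p (-0.94, SE 0.28). New miRNAs with a lower step in IMF were novel_miR_298 (-4.36, SE 0.52), novel_miR_394 (-1.51, SE 0.34) and novel_miR_11 (-1.36, SE 0.32). novel_miR_298 and novel_miR_11 had few reads in the IMF libraries of these days, so their IMF steps are poorly measured. The value of novel_miR_298 mainly restates the BF step. ssc-miR-187 had the higher step in IMF (1.35, SE 0.31). After scaling 14 of the 23 still met the criteria. The 9 that did not were ssc-miR-182, ssc-miR-183, ssc-miR-146a-5p (FDR 0.0712), ssc-miR-29b (FDR 0.0532), ssc-miR-129a-5p, ssc-miR-129b, ssc-miR-7135-3p, ssc-miR-133a-3p and ssc-miR-365-5p. In the fit of the 12 libraries of day 2 and day 4 only 7 of the 23 met the criteria (ssc-miR-132, ssc-miR-222, ssc-miR-1, ssc-miR-210, ssc-miR-452, novel_miR_298 and novel_miR_394), by edgeR 8 (ssc-miR-132, ssc-miR-96-5p, ssc-miR-222, ssc-miR-210, ssc-miR-452, ssc-miR-187, novel_miR_11 and novel_miR_298), and by DESeq2 16. For 3 of the 14 no IMF step could be measured: novel_miR_21 (-3.60, SE 0.84) and novel_miR_623 (-3.28, SE 0.76) had 0 reads in all 6 IMF libraries of day 2 and day 4, and ssc-miR-138 (-2.32, SE 0.60) at most 2, so their values restate the BF step.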

How the results depend on the processing

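In place of 0 DE-miRNAs, edgeR gave 1 and the filter of at least 10 TPM, no filter and the fit of 24 libraries 1 each (ssc-miR-146b in all 4), scaling and merged identical miRNAs 1 each (novel_miR_578), and DESeq2 2. It remained 0 with a pseudocount of 0.1, with the FDR alone, with the replicate block (72 at an unadjusted p under 0.05 against 65) and without each library in turn. At an unadjusted p under 0.05 there were 32 with at least 10 TPM and 34 to 83 when 1 library was left out, 34 without IMF-2d replicate 1. Same-numbered libraries correlated in their deviations by -0.013, 0.216 and 0.0128, and differently numbered ones by -0.156 to 0.142. With 3 libraries on each day this cannot show whether the numbers pair them. Non-overlapping miRNAs were 51 with at least 10 TPM, 14 of them higher on day 4.

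For the difference between sources, 33 became 7 with the 12 libraries of day 2 and day 4, 11 by edgeR, 15 without a filter, 19 after scaling, 34 by DESeq2 (22 of them shared with the 33, and 12 rather than 2 higher in IMF), 36 with the replicate block, and 12 to 64 when 1 library was left out: 12 without BF-2d replicate 3, 17 without IMF-2d replicate 3, 18 without BF-4d replicate 3, 20 without IMF-2d replicate 1, 21 without IMF-4d replicate 2 or 3, and 64 without BF-4d replicate 1. The IMF step changed sign for ssc-miR-210 (0.068 by DESeq2, 0.066 after scaling, 0.092 by edgeR), ssc-miR-133a-3p (0.013 by DESeq2, 0.036 by edgeR, 0.0085 after scaling), ssc-miR-212 (-0.085 without IMF-2d replicate 1, over a range of -0.085 to 0.39 when 1 library was left out), ssc-miR-29b (0.032 without IMF-4d replicate 3, range -0.62 to 0.032), ssc-miR-138 (fitted values only, since at most 2 reads measure no step: -0.046 without IMF-4d replicate 1, range -0.046 to 0.079) and ssc-miR-452 (-0.03 without IMF-2d replicate 3, -0.26 without IMF-4d replicate 1, range -0.26 to 0.30). Scaling moved the median step by 0.105, so a step near 0 can change sign by that shift. Over all 430 miRNAs those below 0 went from 266 to 207 after scaling, so the list is not complete. The cause was not tested. Levels under 3 reads, 0.193 to 0.318 TPM, were taken as not told apart from 0.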

Other observations

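Arms of one hairpin were set side by side after their values were seen, so the results are descriptions. In 59 hairpins both arms were among the 430 miRNAs. The less abundant arm had the lower log2 fold change in 36 and the higher one in 23, with a median difference of -0.12. Its share of the reads of both arms was lower in all IMF-4d than in all IMF-2d libraries in 5 hairpins (miR-365, miR-145, miR-331, miR-424 and miR-7134) and higher in 2 (miR-129a and miR-671). For miR-365, a reported regulator of brown fat in mice, the fold changes of the arms had opposite signs, although neither passed the test. ssc-miR-365-5p was at 15.3, 16.9 and 17.4 TPM on day 2 and at 9.41, 14.2 and 10.2 TPM on day 4, a log2 fold change of -0.53 (SE 0.19, FDR 0.283 by limma). ssc-miR-365-3p was at 35.9, 50.45 and 44.4 TPM and then at 50.52, 60.2 and 50.9 TPM, days that nearly met, with a log2 fold change of 0.31 (SE 0.16, FDR 0.378). The 5p share was 25.1 to 29.9% on day 2 and 15.7 to 19.1% on day 4. The 3p sequence is found at 2 loci, on chromosomes 3 and 12, and the 5p sequence at the chromosome 12 locus only, so the share compares 1 arm of 1 hairpin with reads that both hairpins can give. The same limit holds for miR-129a, whose 5p sequence is found on chromosomes 2 and 18 and whose 3p sequence is found on chromosome 2 only.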
